A study of Mus musculus with 22 samples.

Results

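The TRIM (tripartite motif) family was followed through 4 kinds of sequencing data from mouse fetal liver with and without Mettl3. Members were the protein-coding genes of the bulk RNA table whose symbol is Trim followed by a number and at most 1 letter from a to d. There were 68 such genes among 52459 listed genes, of which 21926 were protein-coding. All 68 had a row in the liver RNA table and an H3K4me3 window, and 41 of them were in the single-cell table, so that 41 were in all 4 tables.

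Most TRIM proteins carry a RING finger with E3 ubiquitin ligase activity, a B-box and a coiled coil, followed by a C-terminal domain that sets the target. Several are antiviral factors or regulate the sensors of viral nucleic acid, and many of these are induced by interferon. Others have different work: Trim24, Trim28 and Trim33 are chromatin cofactors, Trim10 and Trim58 act in red cell maturation, and Trim54, Trim55 and Trim63 belong to the sarcomere. Mettl3 encodes the methyltransferase that places N6-methyladenosine on mRNA.

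The KO embryos were Vav-Cre Mettl3fl/fl and the WT embryos were Mettl3fl/fl without Vav-Cre, so the floxed alleles were shared by both genotypes. Vav-Cre acts in blood-forming cells. Whether the other cells of the liver kept the intact gene was not measured here. All embryos were at E14.5. LSK cells (Lin-Sca-1+c-Kit+), a sorted fraction that holds stem cells and early progenitors, gave bulk polyA RNA (3 KO and 3 WT libraries), H3K4me3 CUT&RUN (2 KO and 2 WT) and single-cell RNA (2 KO and 2 WT). Whole fetal liver gave RNA pulled down with J2, an antibody against double-stranded RNA (2 KO and 2 WT), and INPUT total RNA from another part of the same livers (2 KO and 2 WT). H3K4me3 is a histone mark of active gene starts, counted in a window of 3 kb around each transcript start. How many embryos went into a library was not given in the sources used here.

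The totals, in megacounts (M), were 20.1 to 40.6 M counts per bulk library and 11.5 to 14.45 M counts per H3K4me3 library, with the strongest window of each gene summed. Liver libraries held 3.10 to 5.25 M counts and single-cell libraries 7.26 to 11.6 M counts. Mettl3 itself was at 4.13, 6.31 and 5.52 CPM (TMM-normalised counts per M counts of the library) in KO bulk LSK libraries, against 43.0, 43.0 and 33.2 in WT (log2 fold change −2.91 ± 0.17 SE). In the single-cell sums it was at 64.3 and 52.2 CPM in the libraries labelled KO, against 36.3 and 33.3 in WT. In liver it was at 46.2 and 34.6 CPM in J2 libraries labelled KO against 25.5 and 30.2 in J2 WT, and at 6.70 and 26.9 CPM in INPUT libraries labelled KO against 29.4 and 24.9 in INPUT WT. The Mettl3 count therefore went with the label in bulk RNA and not in the single-cell, J2 and second INPUT KO libraries. Whether the counted part of Mettl3 lies outside the deletion was not given. In the single-cell table both libraries labelled KO had Xist (326 and 293 CPM) and no Ddx3y, and both WT libraries had Ddx3y (31.1 and 36.9 CPM) and no Xist, so genotype and embryo sex cannot be told apart there.

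The summed levels of several lists of cell type markers also differed between genotypes. In bulk LSK RNA the 7 granulocyte markers summed to 3811 to 3877 CPM in KO, against 1544 to 1685 in WT. The 12 erythroid markers summed to 427 to 557 CPM in KO against 784 to 1042 in WT, the 8 lymphoid markers to 544 to 547 against 1149 to 1312, and the 7 stem cell markers to 312 to 375 against 478 to 642. No marker of these lists was at 0 in all bulk libraries. Ly6a, the gene of Sca-1 used for the sort, was at 12.7, 24.4 and 20.4 CPM in KO against 4.93, 7.06 and 7.67 in WT. Kit, the other sort gene, went the other way. Kit and Ly6a together summed to 360 to 396 CPM in KO against 495 to 576 in WT. In bulk samples, fewer cells of a type and less RNA per cell cannot be told apart. The part of cell mixture in the results below was not tested.

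In bulk LSK RNA, 44 of the 68 members had enough counts to be tested, 24 did not pass the filter on low counts, and 11 of those had no count in any library. With edgeR's quasi-likelihood test and Benjamini-Hochberg adjustment over all genes (called at an adjusted p under 0.05), 16 members rose in KO and 8 fell. The background was wide: 44.2% of all tested genes were called, 21.6% higher and 22.6% lower. Against it, 36.4% of the tested members rose and 18.2% fell. The members' median log2 fold change was 0.06, and that of all tested genes −0.02. With scaling by library size alone 14 members rose and 12 fell, and that scaling moved the median of all genes to −0.11. All 3 KO libraries lay above all 3 WT libraries for 16 members and below them for 10, while the share of all genes was 26.8% and 27.8%.

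**Figure D1:**
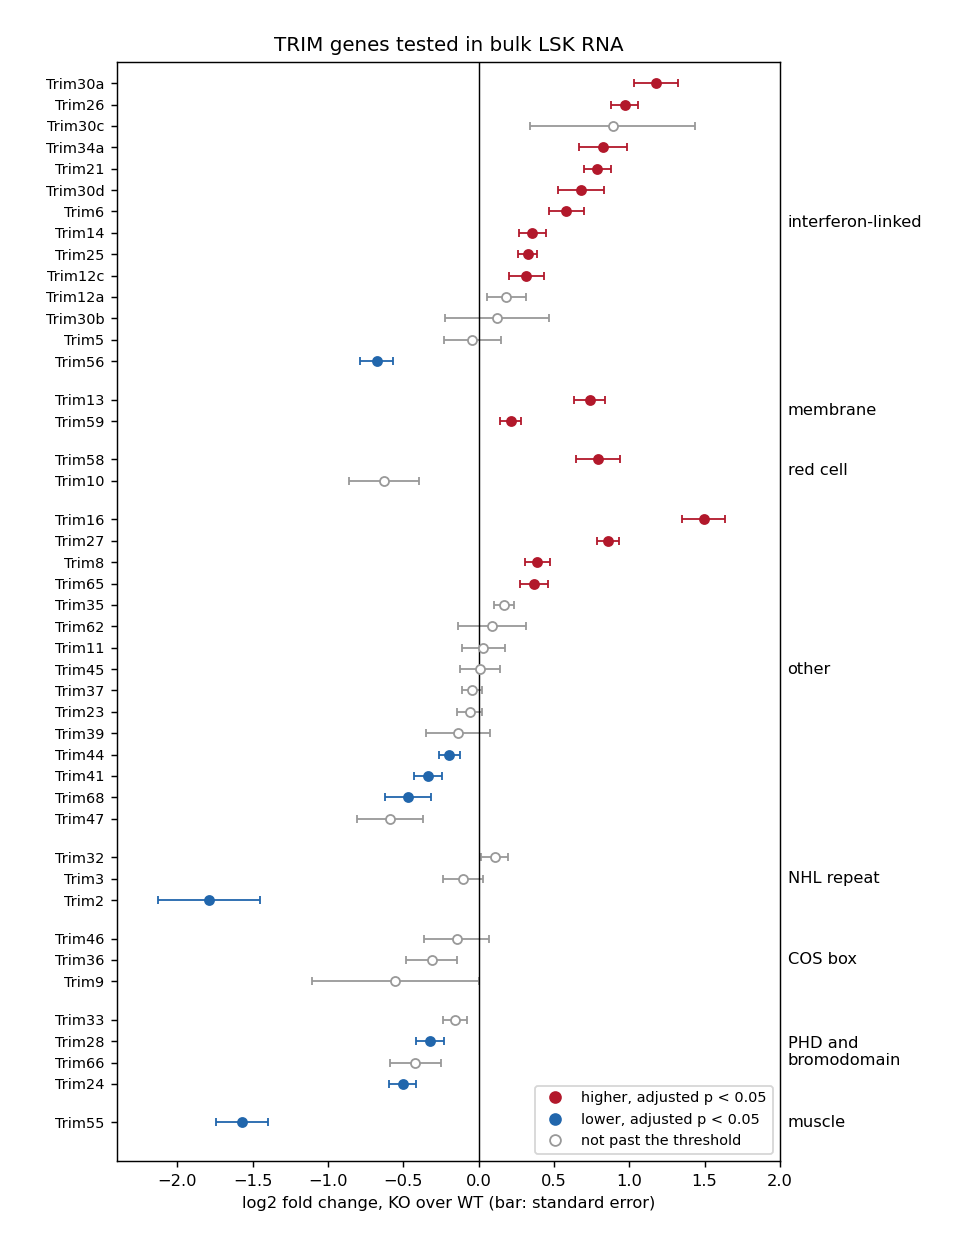
Log2 fold change of KO over WT in bulk LSK RNA for the 44 tested TRIM genes, grouped by role, with standard errors as bars; red points passed the threshold as higher, blue points as lower, and open points did not pass. The values run from −1.79 for Trim2 to 1.49 for Trim16, and 9 of the 14 tested interferon-linked genes are red.

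The interferon-linked and antiviral members carried the largest share of the rises. Of the 16 on this list 14 were tested, 9 rose, and 1, Trim56, fell; the median log2 fold change was 0.47. That is 64.3% of those tested higher and 7.14% lower, beside 21.6% and 22.6% of all genes. The list was drawn up with earlier results of these data known, so these shares are a description and not a test. Of the 14 tested, 9 are neighbours on chromosome 7, close copies among which reads could be split. The 9 that rose were Trim30a, Trim26, Trim34a, Trim21, Trim30d, Trim6, Trim14, Trim25 and Trim12c.

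Trim30a (ENSMUSG00000030921), which in mouse restrains NF-kB signalling downstream of Toll-like receptors, was at 95.1, 121 and 119 CPM in KO and at 58.8, 49.9 and 39.2 CPM in WT. The groups did not overlap, and the log2 fold change was 1.18 ± 0.15 (adjusted p = 0.000312). Trim26, a RING ligase with reported roles in the control of interferon-beta, was at 36.6, 37.6 and 37.1 CPM in KO and at 21.0, 17.9 and 17.97 CPM in WT. Its KO libraries were almost equal and all above WT, with a log2 fold change of 0.97 ± 0.09 (adjusted p = 8.18e-05). Trim21, the cytosolic receptor that directs antibody-coated virus to the proteasome, was at 36.2, 43.2 and 40.3 CPM in KO and at 22.7, 23.2 and 23.5 CPM in WT. This was a log2 fold change of 0.79 ± 0.09 (adjusted p = 0.000196), again with no overlap. Trim34a was at 15.1, 20.6 and 19.3 CPM in KO and at 12.1, 10.3 and 8.51 CPM in WT (log2 fold change 0.82 ± 0.16, adjusted p = 0.00292).

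Smaller rises were found for the RNA sensor regulators. Trim25, the ligase known for ubiquitinating the RNA sensor RIG-I, averaged 238.6 ± 6.96 CPM in KO and 190.4 ± 4.45 CPM in WT (SD, n = 3 each). Its log2 fold change was 0.32 ± 0.06 (edgeR adjusted p = 0.00265), a difference several times the spread within either group. Trim14, an adaptor of RIG-I signalling at mitochondria in human cells, averaged 29.6 ± 0.49 CPM in KO and 23.2 ± 1.96 CPM in WT (SD, n = 3 each; log2 fold change 0.35). Trim6, which in human cells makes free ubiquitin chains for interferon signalling, was at 16.6, 17.8 and 16.04 CPM in KO and at 12.9, 10.0 and 10.7 CPM in WT. Trim65, a ligase of the RNA sensor MDA5 that was kept outside the list, was at 26.5, 28.6 and 26.8 CPM in KO and at 19.2, 21.6 and 22.6 CPM in WT (log2 fold change 0.37 ± 0.09, adjusted p = 0.011).

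Trim56, an antiviral ligase in human cells, went the other way. It was at 45.3, 37.3 and 40.1 CPM in KO and at 72.1, 67.6 and 56.4 CPM in WT, with every KO library below every WT library (log2 fold change −0.68 ± 0.11, adjusted p = 0.00115). The remaining tested members of the list did not pass. Trim12a stood at 0.18 ± 0.13, Trim30b at 0.12 ± 0.35, Trim30c at 0.89 ± 0.55 and Trim5 at −0.04 ± 0.19 on the log2 scale. Trim30b and Trim30c had at most 2.51 CPM in any library. Trim34b and Trim38 did not pass the count filter.

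Of the members on other lists, Trim16 had the largest rise of the family. Trim16 (ENSMUSG00000047821), which in human cells takes part in the autophagy of damaged endomembranes, was at 10.3, 11.8 and 12.9 CPM in KO and at 3.61, 4.39 and 4.45 CPM in WT. The lowest KO library was above the highest WT library, and the log2 fold change was 1.49 ± 0.14 (adjusted p = 8.31e-05). Trim27, the RET finger protein, was at 315, 329 and 329 CPM in KO and at 169.7, 172 and 195 CPM in WT (log2 fold change 0.86 ± 0.07, adjusted p = 5.44e-05). Trim8, reported to bind the cytokine suppressor SOCS1, was at 100.3, 89.4 and 91.1 CPM in KO and at 66.5, 70.1 and 78.1 CPM in WT (log2 fold change 0.39 ± 0.08).

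Both members anchored in membranes rose. Trim13, a ligase of the endoplasmic reticulum, was at 31.7, 37.6 and 32.6 CPM in KO and at 20.7, 21.7 and 18.5 CPM in WT (log2 fold change 0.74 ± 0.10, adjusted p = 0.000525). Trim59 was at 153, 163 and 162 CPM in KO and at 145, 140.4 and 128 CPM in WT, a small shift of 0.21 ± 0.07 on the log2 scale (adjusted p = 0.0359). The Trim13 span overlaps those of Dleu2 and Kcnrg in RefSeq, and 30 of the 68 members overlap some annotated gene. Whether counting used the strand was not given, so reads of such neighbours cannot be told apart.

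The pair of red cell genes diverged. Trim58, which in mouse red cell precursors degrades the motor protein dynein, was at 10.0, 7.46 and 8.40 CPM in KO and at 5.41, 4.85 and 4.70 CPM in WT. It rose, with a log2 fold change of 0.79 ± 0.15 (adjusted p = 0.00238), although the 12 erythroid markers summed lower in KO, with 9 of the 12 called lower. Trim10, needed for terminal red cell differentiation in mouse cells, was at 8.14, 6.16 and 6.27 CPM in KO and at 11.3, 13.5 and 6.78 CPM in WT. Its log2 fold change of −0.63 ± 0.23 did not pass (adjusted p = 0.0534), and it passed as lower with DESeq2 (10 members lower in all) and with library size alone.

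Among the members that fell, Trim2 and Trim55 had the largest changes. Trim55 (ENSMUSG00000060913), a sarcomere protein of striated muscle, was at 2.60, 1.87 and 2.00 CPM in KO and at 6.03, 6.87 and 6.43 CPM in WT (log2 fold change −1.57 ± 0.17, adjusted p = 0.000169). The groups were far apart at these low levels. Trim2 (ENSMUSG00000027993), a ligase with NHL repeats best known from neurons, was at 1.06, 0.97 and 0.84 CPM in KO and at 2.39, 5.12 and 2.38 CPM in WT. The second WT library held 190 of its counts and set much of the size: the log2 fold change was −1.79 ± 0.34 with it (adjusted p = 0.00263) and −1.28 without it (edgeR adjusted p = 0.0078). That library also held 71 counts of Trim9 and 17 of Trim67, and Trim67 had none in the other 5.

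The chromatin cofactors with a PHD finger and a bromodomain were lower or did not pass. Trim24, a cofactor of nuclear receptors, was at 37.9, 33.4 and 35.7 CPM in KO and at 55.2, 50.6 and 45.8 CPM in WT (log2 fold change −0.50 ± 0.09, adjusted p = 0.00214). Trim28 (KAP1), the corepressor that KRAB zinc finger proteins recruit to silence retroelements, was at 811, 767 and 756 CPM in KO and at 879, 942 and 1099.6 CPM in WT. Its log2 fold change was −0.32 ± 0.09 (adjusted p = 0.0173); the call was lost without KO replicate 2 (adjusted p = 0.078) and without KO replicate 3 (adjusted p = 0.10 by edgeR), and the value was −0.19 without WT replicate 3. Trim33, a partner of Smad proteins, stood at −0.16 ± 0.08 and Trim66 at −0.42 ± 0.17, and neither passed.

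The other members that fell were Trim44, Trim41 and Trim68, at −0.19 ± 0.07, −0.33 ± 0.09 and −0.47 ± 0.15 on the log2 scale. Each of these calls, like those of Trim12c, Trim59 and Trim28, was lost in at least 1 of the alternatives tried, and the other 18 of the 24 calls were kept in every one. Trim44 lost its call without any 1 library except KO replicate 1 and stood at −0.11 without KO replicate 2, and Trim68 without KO replicate 1 or 2 or WT replicate 1 or 3. Trim41 lost it without KO replicate 2 or 3, Trim59 without either of these or WT replicate 2, and Trim12c without any 1 of KO replicates 2 and 3 and WT replicates 2 and 3. Trim3 and Trim32 with NHL repeats and the microtubule-binding Trim9, Trim36 and Trim46 did not pass in bulk RNA. The same held for Trim11, Trim23, Trim35, Trim37, Trim39, Trim45, Trim47 and Trim62.

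**Figure D2:**
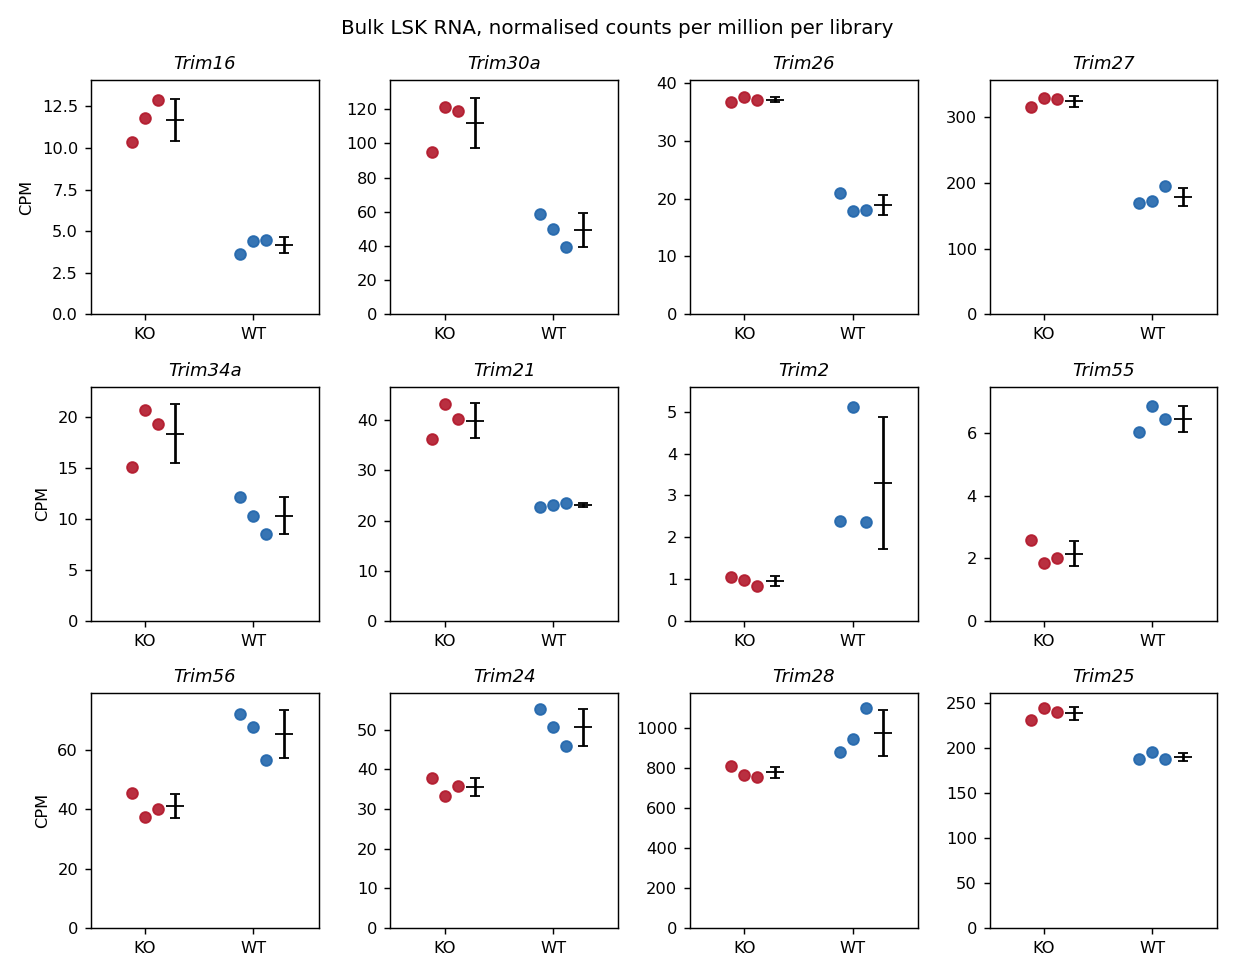
Normalised CPM of 12 TRIM genes in each bulk LSK library, KO left of WT, with the mean and SD (n = 3 each) beside the points; each y axis starts at 0. KO libraries lie above WT for Trim16, Trim30a, Trim26, Trim27, Trim34a, Trim21 and Trim25 and below WT for Trim2, Trim55, Trim56, Trim24 and Trim28.

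Of the members, 10 lie side by side on chromosome 7 of GRCm38.p5, with transcript starts in this order: Trim6 (104218837, plus strand), Trim34a (104244457, plus), Trim5 (104288094, minus), Trim12a (104315463, minus) and Trim34b (104329471, plus). Trim12c (104353362), Trim30b (104369782), Trim30c (104400837), Trim30a (104465193) and Trim30d (104507849) follow, all on the minus strand. In bulk RNA 9 of the 10 were tested, 5 rose (Trim6, Trim34a, Trim12c, Trim30a and Trim30d), none fell at that threshold, and the median log2 fold change was 0.58. Of all tested genes 21.6% rose and 22.6% fell. Within the cluster the size differed between neighbours: Trim30a and Trim30d stood at 1.18 and 0.68, while Trim5 and Trim12a stood at −0.04 and 0.18. These genes are close copies, and reads could be split among them in counting. Summed over copies, Trim30a to Trim30d stood at 1.09 ± 0.15 (edgeR adjusted p = 0.0005), Trim34a and Trim34b at 0.81 ± 0.16 (adjusted p = 0.003), and Trim12a and Trim12c at 0.28 ± 0.11 (adjusted p = 0.073).

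Promoter sequences of RefSeq (GRCm38.p6, 250 bases before to 50 after a gene start) were found for 53 members and searched on both strands for GAAA, then any 2 bases, then GAAA (read on the other strand as TTTC, any 2 bases, TTTC). These letters are the core of the interferon-stimulated response element, a site in the promoters of interferon-induced genes. A match was present in 9 of the 53 members (17.0%), and in 3.99% of the 27025 genes with a promoter. The 9 were Trim2, Trim5, Trim12a, Trim12c, Trim21, Trim26, Trim30a, Trim30d and Trim34a. In bulk RNA 6 of the 9 rose and 1, Trim2, fell, with a median log2 fold change of 0.68. Of the 44 members with a promoter and no match, 25 were tested, 6 rose and 6 fell, and the median was −0.06. Of all tested genes 21.6% rose and 22.6% fell, and the shares among all genes with a match were not counted. Of the 9, Trim5, Trim12a, Trim12c, Trim30a, Trim30d and Trim34a are close copies in the chromosome 7 cluster, so the 9 are not independent. Whether the match goes with the rise was not tested. A match is a description of letters and shows no binding. Trim21 and Trim26 each hold a second, overlapping match and Trim30a a second one in another of its promoters, and each gene was counted once. The windows of the cluster genes and of 2 members on other positions show how near copies share the match, which is in capitals; each is written 5′ to 3′ on the strand of the gene.
Trim30a (chr7:104465195-104465254, minus): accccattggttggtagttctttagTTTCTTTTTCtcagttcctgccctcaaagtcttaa
Trim30d (chr7:104507856-104507915, minus): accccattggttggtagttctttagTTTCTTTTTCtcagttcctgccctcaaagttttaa
Trim12c (chr7:104353350-104353409, minus): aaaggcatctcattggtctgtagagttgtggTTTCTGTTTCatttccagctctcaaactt
Trim5 (chr7:104288121-104288180, minus): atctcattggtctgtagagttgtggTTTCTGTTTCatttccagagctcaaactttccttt
Trim12a (chr7:104315466-104315495, minus): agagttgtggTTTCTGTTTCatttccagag
Trim34a (chr7:104244457-104244486, plus): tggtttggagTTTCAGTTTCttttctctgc
Trim26 (chr17:36836961-36837020, plus): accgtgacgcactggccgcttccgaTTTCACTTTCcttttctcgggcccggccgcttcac
Trim21 (chr7:102565450-102565479, minus): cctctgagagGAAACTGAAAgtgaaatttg
The windows of Trim30a and Trim30d differ at 1 of 60 positions. Trim12c, Trim12a and Trim5 carry the same 10 letters, and their bulk RNA stood at 0.32, 0.18 and −0.04 on the log2 scale. In Trim30a, Trim30d, Trim12c, Trim5 and Trim26 the match lies before the RefSeq gene start, and in Trim12a, Trim34a and Trim21 it lies after it. For Trim12a the RefSeq start is not the transcript start given above (104315463, minus strand), and the match lies before the latter.

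The other genes of the same pathways are given by count. Of 15 partners in RNA and DNA sensing, 10 rose in bulk LSK RNA and none fell at the threshold. Of all tested genes 21.6% rose and 22.6% fell. Ddx58, which encodes RIG-I, was at 49.3, 63.3 and 60.9 CPM in KO and at 30.01, 33.1 and 29.99 CPM in WT (log2 fold change 0.90 ± 0.11). Ifih1, which encodes MDA5, stood at 0.97 ± 0.11, Irf7, a transcription factor of interferon genes, at 1.91 ± 0.17, and Mavs, the mitochondrial adaptor, at 0.45 ± 0.08. Among interferon signalling genes, Irf9 (0.70 ± 0.07) rose, and Tyk2 (−0.27) and Ifnar2 (−0.18) fell. Of 14 partners of Trim28 in silencing, 2 rose (Zfp568 and Pphln1) and 3 fell (Atf7ip, Chd3 and Cbx5), and the median was 0.03. These counts stand beside the same 21.6% and 22.6% of all genes. Among TRIM proteins with other names, Mefv (pyrin) was at 1.06, 1.94 and 1.53 CPM in KO and at 0.28, 0.35 and 0.20 CPM in WT (log2 fold change 2.37 ± 0.36, adjusted p = 0.000851). Pml and Mid2 did not pass, and Mid1 was not tested in bulk RNA.

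At the transcript starts, all 68 members had a window with enough H3K4me3 counts to be tested, taking the strongest window of each gene. In KO, 7 members rose (Trim14, Trim16, Trim30a, Trim30b, Trim30d, Trim34a and Trim6) and 2 fell (Trim43b and Trim55), which is 10.3% and 2.94%. Over all tested windows 7.88% were called, 3.22% higher and 4.66% lower. The members' median log2 fold change was 0.23, and that of all windows −0.15. The members' median depended on the scaling and the windows. It was −0.01 with library size alone (all windows −0.40) and 0.04 with marked windows only (all windows 0.01). Another fit held every distinct window, and each gene was then taken at its window of lowest adjusted p. There the median was −0.11 (all genes −0.42), and choosing windows by their p favours calls. Most of the 7 are cluster genes: 5 of the 10 members of the chromosome 7 cluster rose and none fell. All 6 interferon-linked genes that rose in H3K4me3, except Trim30b, also rose in RNA.

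Trim16 had the largest rise here as in RNA: its window was at 69.2 and 64.8 CPM in KO and at 36.3 and 30.5 CPM in WT (log2 fold change 1.00 ± 0.21, adjusted p = 0.000195). The Trim30a window was at 32.6 and 31.0 CPM in KO and at 19.1 and 14.49 CPM in WT (0.92 ± 0.17, adjusted p = 2.34e-05). Both pairs of libraries were well apart. The windows of Trim30d (0.71 ± 0.17), Trim6 (0.64 ± 0.18), Trim14 (0.64 ± 0.22), Trim34a (0.55 ± 0.18) and Trim30b (0.54 ± 0.18) rose by less. The Trim14 window was at 76.0 and 69.7 CPM in KO and at 50.3 and 43.1 CPM in WT. The Trim34a window was at 38.8 and 35.8 CPM in KO and at 27.8 and 23.1 CPM in WT. The Trim6 window was at 44.0 and 38.2 CPM in KO and at 28.7 and 24.0 CPM in WT. For Trim30d and Trim30b the windows were lower, with 12.3 and 14.1 CPM in KO against 8.57 and 7.54 in WT for Trim30d, and 9.73 and 10.6 in KO against 6.77 and 7.25 in WT for Trim30b.

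Trim55 fell in H3K4me3 as in RNA, with 3.43 and 3.20 CPM in KO and 9.67 and 7.10 CPM in WT (log2 fold change −1.34 ± 0.22, adjusted p = 6.05e-07). The Trim43b window held 0.82 and 0.73 CPM in KO against 1.87 and 1.77 in WT (−1.23 ± 0.41, adjusted p = 0.039), and its RNA had no count in any bulk library. Trim2 had 26.9 and 23.8 CPM at its window in KO and 29.0 and 24.99 CPM in WT. The difference of −0.09 on the log2 scale did not pass. Trim2 was called lower with library size alone and, at its window of lowest adjusted p, with every distinct window fitted. The other interferon-linked windows did not pass: Trim25 stood at 0.53, Trim12c at 0.53, Trim5 at 0.41, Trim12a, Trim26 at 0.37 each, Trim56 at 0.26, Trim21 at 0.25, Trim38 at −0.15, Trim34b at −0.16 and Trim30c at −0.24.

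With 1 library left out, only the calls of Trim16, Trim30a and Trim55 held in all 4 fits. Trim30b and Trim43b lost theirs in every one, Trim6, Trim14 and Trim34a without KO replicate 1 or WT replicate 2, and Trim30d without WT replicate 2. The H3K4me3 calls also depended on which windows set the scale. When the fit held only windows with a mean of at least 16 CPM, 42 members were tested and 3 rose (Trim14, Trim16 and Trim30a), while Trim13 fell; 4.13% of these windows were called, 2.10% higher and 2.03% lower. The directions of Trim21 and Trim56 turned there, to −0.06 and −0.05. Across the 44 members tested in both, the log2 fold changes of RNA and H3K4me3 had a Pearson r of 0.62 and a Spearman rho of 0.50, over genes, which are not independent replicates. In this scaling the 16 members that rose in RNA had a positive H3K4me3 value, a sign that Trim13 and Trim21, at least, lost with marked windows only; 7 members were called in the same direction in both, and 2 of the 8 that fell in RNA had a negative one.

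**Figure D3:**
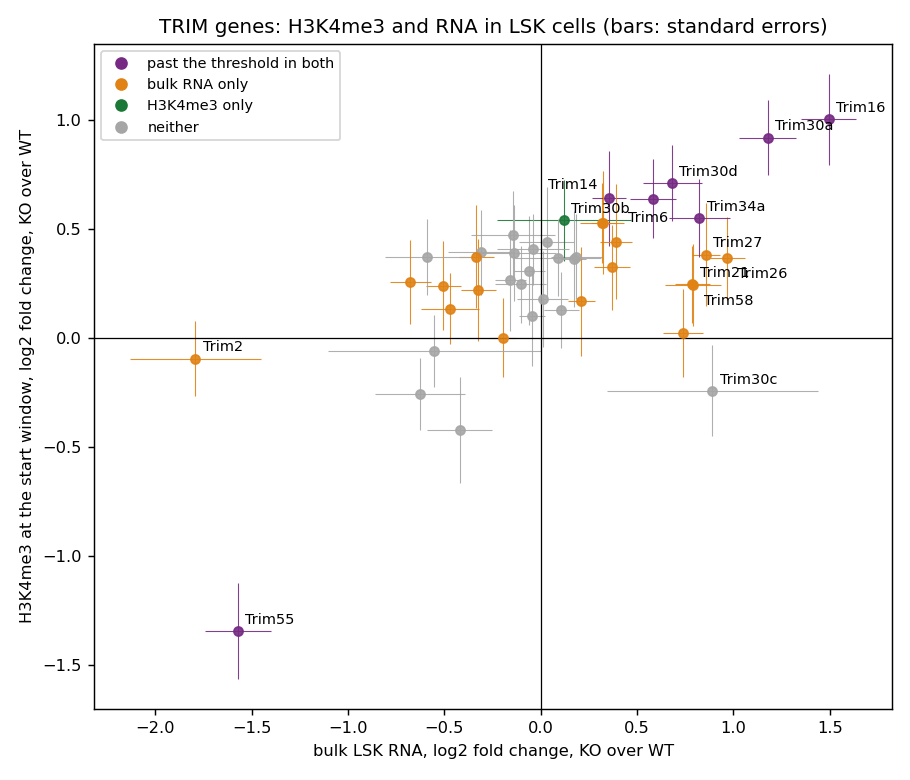
Log2 fold change of KO over WT in bulk LSK RNA (x) and in H3K4me3 at the strongest start window (y) for the 44 TRIM genes tested in both, with standard errors as bars. The 7 genes past the threshold in both are Trim16, Trim30a, Trim30d, Trim34a, Trim6 and Trim14 at the upper right and Trim55 at the lower left.

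In whole fetal liver, 41 of the 68 members were tested, 27 did not pass the count filter, and 9 of those had no count in any liver library. In INPUT RNA 2 members rose in the libraries labelled KO, Trim25 and Trim21, and none fell (edgeR; 15 members had an unadjusted p under 0.05, and DESeq2 called 6 higher and 1 lower). Of all tested genes 1.18% were called, 0.614% higher and 0.566% lower. Trim25 was at 143 and 124 CPM in KO and at 53.7 and 55.6 CPM in WT (log2 fold change 1.28 ± 0.20, adjusted p = 0.0161). Trim21 was at 25.3 and 40.1 CPM in KO and at 4.63 and 3.68 CPM in WT (2.96 ± 0.55, adjusted p = 0.0296). Neither call held in a fit of only the 4 INPUT libraries, where none of the members passed, or without either INPUT KO library. Trim21 also lost its call without J2 KO replicate 1, J2 KO replicate 2 or J2 WT replicate 2, where Trim25 kept its own.

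Several cluster genes had large differences that did not pass. Trim30a was at 28.5 and 20.2 CPM in INPUT KO and at 4.63 and 0.82 CPM in INPUT WT (log2 fold change 3.13 ± 0.70, adjusted p = 0.0595, and 2.39 to 4.85 with 1 library left out). Trim30d was at 9.43 and 14.7 CPM in KO and at 0 and 2.04 CPM in WT, and Trim34a at 15.4 and 19.9 CPM in KO and at 0 and 4.09 CPM in WT (adjusted p = 0.106 and 0.14 by edgeR). Trim26 was at 48.6 and 86.9 CPM in KO and at 29.7 and 14.7 CPM in WT (1.602 ± 0.43, adjusted p = 0.101). DESeq2 called these 4 higher as well. Trim12a and Trim12c varied more within WT than between genotypes: Trim12a was at 17.9 and 29.7 CPM in KO and at 3.48 and 36.8 CPM in WT, and Trim12c at 13.6 and 8.87 CPM in KO and at 1.93 and 15.5 CPM in WT.

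Of the remaining interferon-linked members in INPUT RNA, Trim14 stood at 0.13, Trim6 at 0.07 and Trim56 at −0.56 ± 0.22, and none of them passed. Trim56 was at 84.4 and 79.2 CPM in KO and at 107 and 134 CPM in WT. Trim5, Trim30b and Trim30c had no count in either INPUT WT library and at most 5.50 CPM in KO. Trim13 also had none in INPUT WT and 2.98 and 4.28 CPM in INPUT KO. The KO mean was 3.04-fold over a floor of 3 counts per library set for WT. The counting error of the KO libraries (12 and 14 counts) was left out of that value. In these libraries the 12 erythroid markers summed to 3068 to 3319 CPM in KO against 5924 to 7465 in WT, and the 7 hepatocyte markers to 19001 to 19724 against 9741 to 12906. The 7 granulocyte markers summed to 445 to 534 CPM in KO against 178 to 216 in WT. The part of this mixture in the liver results was not tested.

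The J2 pull-down was first set against INPUT of the same livers. In the libraries labelled KO, 11 of the 41 tested members were higher in J2 than in INPUT and 3 were lower. In WT 10 were higher and 2 lower. Of all tested genes 30.4% were called in KO (15.3% higher, 15.1% lower) and 23.9% in WT (13.2% higher, 10.7% lower). The members' median log2 ratio was 0.91 in KO and 0.57 in WT, beside 0.04 and 0.10 for all genes. The genotypes had 8 members higher in common, which is 72.7% of the KO list and 80.0% of the WT list: Trim2, Trim23, Trim25, Trim33, Trim44, Trim56, Trim59 and Trim71. The share of all genes called higher in both genotypes was not counted. Both ratios came from 1 fit of the 8 liver libraries, so the lists are not independent. Trim27 and Trim28 were lower in J2 in both. In a fit of only the 4 WT libraries 33 members were tested. There 6 were higher (Trim2, Trim23, Trim25, Trim56, Trim58 and Trim71) and 2 lower, beside 1370 and 1198 of 12699 genes. Trim33, Trim44 and Trim59 of the 8 in common, and Trim13, were not called there. With only the 4 KO libraries 14 of 36 members were higher and 3 lower, beside 2716 and 2606 of 13671 genes.

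Trim44, which lacks the RING finger, was at 227 and 289.7 CPM in J2 against 78.1 and 75.5 in INPUT of KO livers, and at 240.2 and 214 CPM in J2 against 143 and 115 in INPUT of WT livers. Its log2 ratio was 1.75 ± 0.22 in KO (adjusted p = 0.000129) and 0.82 ± 0.21 in WT (adjusted p = 0.0168). Trim71, an RNA-binding protein with NHL repeats known from early embryos, was at 73.7 and 106 CPM in J2 against 33.2 and 41.6 in INPUT of KO livers, and at 104.6 and 95.9 CPM in J2 against 12.7 and 21.3 in INPUT of WT livers. The ratio was 1.26 ± 0.33 in KO and 2.56 ± 0.35 in WT. Trim23, which ends in a GTPase-like ARF domain, was at 75.0 and 50.9 CPM in J2 against 15.1 and 8.26 in INPUT of KO livers, and at 55.5 and 78.3 CPM in J2 against 22.4 and 6.54 in INPUT of WT livers (2.42 ± 0.54 and 2.201 ± 0.54 on the log2 scale). Its INPUT libraries spread widely.

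Further members higher in J2 had log2 ratios of 1.71 ± 0.33 in KO and 1.92 ± 0.33 in WT for Trim2, 1.87 ± 0.31 and 1.06 ± 0.30 for Trim59, and 1.34 ± 0.19 and 1.76 ± 0.20 for Trim25. For Trim56 the ratios were 1.30 ± 0.22 in KO and 1.36 ± 0.22 in WT, and for Trim33 1.06 ± 0.33 and 1.03 ± 0.33. In KO and not in WT, Trim12c (2.30 ± 0.71), Trim24 (1.44 ± 0.38) and Trim39 (1.02 ± 0.35) passed as higher and Trim41 (−1.42 ± 0.48) as lower. In the fit reported here, Trim58 passed in WT (1.81 ± 0.35) and stood at 0.95 ± 0.34 in KO (edgeR adjusted p = 0.054), where it passed with DESeq2, with both other scalings and with only the 4 KO libraries. Trim13 passed in WT, where it had 3.33 and 3.53 CPM in J2 WT and no count in INPUT WT. The J2 mean was 2.87-fold over the floor, with the counting error of J2 (15 and 14 counts) left out. With the animal as a replicate block, Trim39 (adjusted p = 0.063), Trim41 (0.069) and, in WT, Trim13 (0.083) no longer passed in edgeR, and Trim37, at 0.88 ± 0.32 without the block, passed as higher in KO. Leaving out single libraries changed the count of members called to between 9 and 19 in KO and between 5 and 13 in WT, the lowest WT count being without J2 WT replicate 2. In KO, Trim12c and Trim33 lost their calls without any 1 of the 4 KO libraries, Trim39 and Trim41 also without either J2 WT library, Trim24 without INPUT or J2 KO replicate 1, and Trim71 without INPUT KO replicate 1 or J2 KO replicate 2. In WT, Trim23, Trim27, Trim33, Trim44, Trim58 and Trim59 lost theirs without J2 WT replicate 2. Trim33 also lost it without INPUT WT replicate 1 or either J2 KO library, Trim44 without INPUT WT replicate 2 or J2 WT replicate 1, Trim59 without INPUT WT replicate 1, and Trim13 without any 1 library except the INPUT KO libraries. Over these fits the WT ratio ran between 1.59 and 3.36 for Trim23, 0.66 and 1.42 for Trim33, and 0.70 and 1.56 for Trim59.

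Trim28 was at 40.5 and 51.0 CPM in J2 against 151 and 143 in INPUT of KO livers, and at 68.6 and 64.2 CPM in J2 against 196 and 175 in INPUT of WT livers. All 4 J2 libraries lay below all 4 INPUT libraries, with log2 ratios of −1.69 ± 0.23 in KO and −1.48 ± 0.23 in WT. Trim27 was at 29.7 and 29.5 CPM in J2 against 78.9 and 98.5 in INPUT of KO livers, and at 34.6 and 29.2 CPM in J2 against 114 and 72.3 in INPUT of WT livers (−1.58 ± 0.31 and −1.54 ± 0.31). For no member did the ratio differ between genotypes by the interaction test: 0 of 41 passed in edgeR (4 at an unadjusted p under 0.05) and 0 in DESeq2 (6 at an unadjusted p under 0.05). Over all genes 0% passed in edgeR. The largest differences of the ratio at an unadjusted p under 0.05 among members with counts in every library were 0.93 ± 0.30 for Trim44, −1.30 ± 0.47 for Trim71 and 1.40 ± 0.53 for Trim24 (adjusted p = 0.46 to 0.49 by edgeR).

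The level in the J2 libraries themselves was then compared between genotypes, a comparison chosen after the values were seen. Trim30d, Trim30a and Trim25 rose in the J2 libraries labelled KO and none fell at the threshold, 3 of 41, beside 1.92% of all genes (0.757% higher, 1.16% lower). Trim30d was at 37.7 and 33.7 CPM in J2 KO and at 0.89 and 1.76 CPM in J2 WT (log2 fold change 4.73 ± 0.94, adjusted p = 0.028). Trim30a was at 70.6 and 65.9 CPM in J2 KO and at 4.66 and 12.3 CPM in J2 WT (3.01 ± 0.63, adjusted p = 0.0348). Trim25 was at 327 and 349 CPM in J2 KO and at 178 and 193 CPM in J2 WT (0.87 ± 0.19, adjusted p = 0.0442). For each of the 3, both KO libraries lay above both WT libraries, and the WT libraries of Trim30a and Trim30d differed widely in proportion. Trim25 was not called with a replicate block (edgeR adjusted p = 0.069) or without either INPUT KO library. All 3 calls were lost when any 1 of the 4 J2 libraries was left out, with 0 members then called, and a fit of only the 4 J2 libraries called 7 higher and 2 lower.

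Other interferon-linked members showed the same order in J2 without passing. Trim34a was at 36.6 and 34.3 CPM in J2 KO and at 2.00 and 3.78 CPM in J2 WT (3.61 ± 0.92, adjusted p = 0.0788). Trim12a was at 51.0 and 47.2 CPM in J2 KO and at 7.99 and 10.1 CPM in J2 WT (2.44 ± 0.78, adjusted p = 0.157). Trim21 was at 26.8 and 28.3 CPM in J2 KO and at 9.55 and 8.06 CPM in J2 WT (1.64 ± 0.50, adjusted p = 0.143). Trim12c was at 52.3 and 58.8 CPM in J2 KO and at 13.8 and 24.2 CPM in J2 WT (1.55 ± 0.68). Trim26 stood at 0.61, Trim14 at 1.02, Trim6 at 1.11 and Trim5 at 1.55 on the log2 scale. Trim30b (3.13) and Trim30c (2.55) had at most 2.83 CPM in any J2 library. Trim56 was lower, at 205 and 198 CPM in J2 KO and at 271 and 349 CPM in J2 WT (−0.62 ± 0.21, adjusted p = 0.187). Both J2 KO libraries lay above both J2 WT libraries for 17 of the 41 members and below them for 10, beside 26.6% and 27.9% of all genes.

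**Figure D4:**
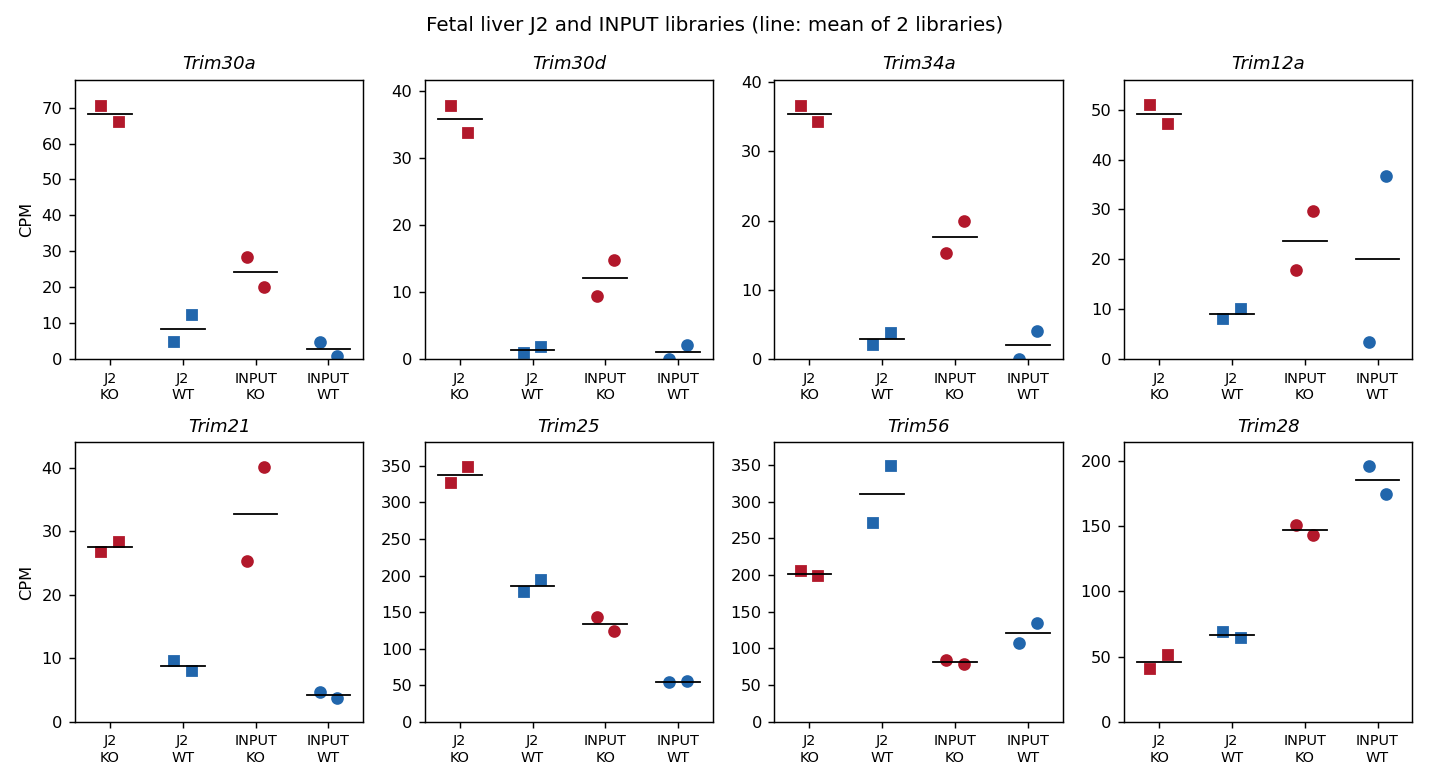
Normalised CPM of 8 TRIM genes in the liver libraries: J2 KO, J2 WT, INPUT KO and INPUT WT, 2 libraries each, with the mean as a line; each y axis starts at 0. For Trim30a, Trim30d and Trim34a both J2 KO points (33.7 CPM or more) lie above all other libraries, and Trim28 has its J2 points below its INPUT points.

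Of the 15 sensing partners in liver, Ddx58, Irf7 and Ifih1 rose in INPUT RNA (3 of 15, beside 0.614% of all genes higher), and Ifih1 and Irf7 rose in the J2 libraries (2 of 15, beside 0.757%). Ifih1 was at 41.7 and 51.4 CPM in INPUT KO and at 5.41 and 11.4 CPM in INPUT WT. At the gene starts of LSK cells 3 of the 15 rose in H3K4me3 (Ikbke, Dhx58 and Ifih1), beside 3.22% of all windows higher. Irf9 rose in bulk RNA, in H3K4me3, in INPUT and in J2, where it was at 90.3 and 80.0 CPM in KO against 15.1 and 19.1 in WT.

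In the single-cell data, counts were summed over the cells of each library, since cells are not replicates. Of 15707 deposited cells 15678 were kept, 4920 and 3884 in the libraries labelled KO and 2731 and 4143 in WT. Of the 41 listed members 37 were tested and none passed (edgeR; 8 at an unadjusted p under 0.05, and DESeq2 called Trim27 and Trim30a higher). Of all genes 0.00748% passed, 1 gene. In each library a gene seen in fewer than 10 cells was listed at 0, so a 0 is not a measured absence: Trim16 was at 1.595 and 2.07 CPM in KO and listed at 0 in both WT libraries.

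The direction of the interferon-linked members was mostly that of bulk RNA. Trim30a was at 78.1 and 78.8 CPM in KO and at 30.8 and 37.2 CPM in WT (1.20 ± 0.16, adjusted p = 0.218). Trim12c was at 18.8 and 16.7 CPM in KO and at 8.32 and 9.74 CPM in WT (0.97 ± 0.19, adjusted p = 0.234), and Trim30d at 13.9 and 12.7 CPM in KO and at 6.27 and 8.11 CPM in WT (0.88 ± 0.22). Trim25 was at 29.1 and 24.7 CPM in KO and at 14.9 and 20.1 CPM in WT. Trim21 was at 7.44 and 3.72 CPM in KO and listed at 0 and 3.48 CPM in WT. Trim30b was at 1.17 and 1.49 CPM in KO and listed at 0 and 1.74 CPM in WT. Trim30c was at 1.38 and 1.74 CPM in KO and listed at 0 in both WT libraries. Trim6 stood at 0.74, Trim34a at 0.70 and Trim26 at 0.41 on the log2 scale, while Trim56, Trim14, Trim12a and Trim5 stood at −0.01, −0.05, −0.07 and −0.45. Trim27 was at 190.4 and 214 CPM in KO and at 124 and 137 CPM in WT, and Trim28 at 155 and 184 CPM in KO and at 199.9 and 195 CPM in WT. Both KO libraries lay above both WT libraries for 17 of 37 members (14 of them with no library at 0) and below them for 2, beside 25.0% and 23.8% of all genes.

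Over the 37 members tested in both bulk RNA and the single-cell sums, the log2 fold changes had a Pearson r of 0.64 and a Spearman rho of 0.81, over genes. Of the 22 members called in bulk RNA and tested here, 19 had the same sign. The same was so for 22 of 24 in INPUT RNA (r 0.41, rho 0.63, 40 members) and for 18 of 24 in the J2 level (r 0.25, rho 0.50, 40 members). INPUT and J2 libraries come from the same livers. The share of all genes called in bulk RNA with the same sign was not computed for these comparisons or for H3K4me3. Whether the members differ from other genes in this was not tested.

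To give Trim30a by cell class, cells were put in classes with at least 3 counts from at least 2 of a class's markers. Cells with granulocyte markers made up 35.9% and 25.2% of the kept cells in the libraries labelled KO and 17.2% and 12.6% in WT. In cells with granulocyte markers Trim30a was at 83.3 and 80.4 CPM, per total of the class, in KO and at 25.7 and 32.7 in WT. In cells with stem cell markers it was at 148.5 and 124 in KO and at 52.9 and 53.6 in WT, and in cells with lymphoid markers at 153 and 98.0 in KO and at 29.3 and 43.9 in WT. In cells with monocyte and macrophage markers it was at 188 and 117 in KO and at 52.2 and 39.7 in WT, and in cells with erythroid markers at 40.7 and 111 in KO and at 4.76 and 11.8 in WT. Both KO libraries were above both WT libraries in all 5 classes shown, with only 6 and 5 counts in the WT libraries of the erythroid class. The genes shown by class were chosen after their values were seen, and no test was made.

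Trim28 showed no such order within the classes: in cells with granulocyte markers it was at 160.2 and 201 CPM in KO and at 194 and 205 in WT, and in cells with stem cell markers at 197 and 248 in KO and at 196 and 242 in WT. Trim27 in cells with granulocyte markers was at 191 and 241 in KO and at 134 and 153 in WT. Like Trim30a, it had both KO libraries above both WT libraries in every class shown. In cells with erythroid markers it was at 186 and 207 in KO and at 109 and 180 in WT. Trim10 counts sat mainly in cells with erythroid markers, with 29 and 0 counts in KO and 54 and 8 in WT. These Trim10 counts are too few for a comparison.

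**Figure D5:**
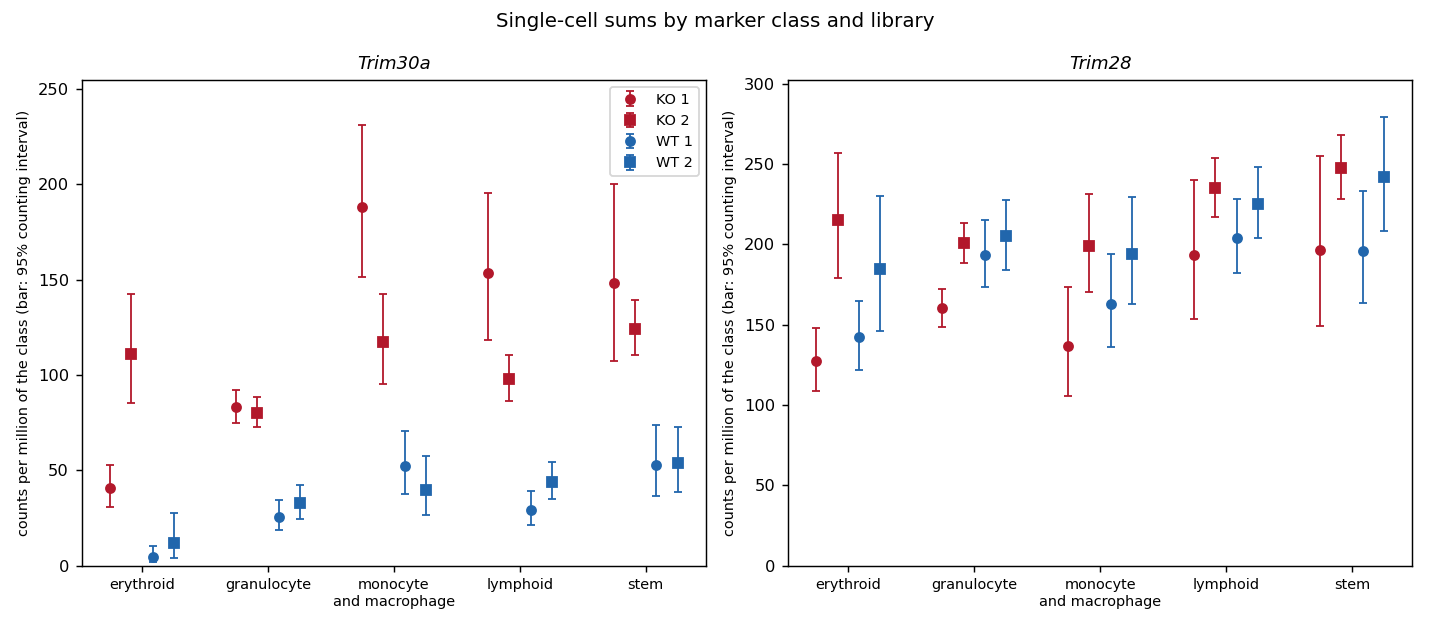
CPM of the class for Trim30a (left) and Trim28 (right) in 5 marker classes of single cells, by library (KO 1, KO 2, WT 1, WT 2), with exact Poisson intervals at 95% that cover counting error only. For Trim30a both KO points lie above both WT points in every class, from 40.7 and 111 against 4.76 and 11.8 in cells with erythroid markers to 188 and 117 against 52.2 and 39.7 in cells with monocyte and macrophage markers.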

How the data were processed

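The authors deposited raw counts in 4 tables: counts of aligned reads per gene for bulk LSK RNA and for liver J2 and INPUT RNA, counts of H3K4me3 reads per transcript start window, and counts per gene and cell. The submitters' processing notes name, with no roles, Seurat 3.0, edgeR, bedtools, the aligners Bowtie2 2.2.9 and STAR 2.5.3a, Picard 2.9.0 and the build GRCm38.p5. The counting tool, annotation release and strand setting were not given in the sources used here.

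Counts were tested with edgeR 4.0.16 in R 4.3.3 (TMM, filterByExpr, quasi-likelihood F test, Benjamini-Hochberg over all genes, threshold 0.05). DESeq2 1.42.0, other scalings, filters and left-out libraries were alternatives. For H3K4me3 the strongest distinct window per gene was used (52453 genes). The 8 liver libraries shared 1 fit. Single-cell counts were summed per library, leaving out cells below 500 counts or with 20% or more from mitochondrial genes; doublets were not removed, and 8 barcodes occurred in more than 1 library. The deposited counts behind each value limit its precision, and intervals cover counting error only. The scripts were tested on simulated counts.

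INPUT and J2 RNA come from parts of the same liver, per the labels' protocols, and libraries of the same number were taken as 1 animal (correlation of deviations 0.01 in KO and 0.13 in WT); the block is given beside the calls it changed. Replicates are labelled biological. All called members are named. All tested interferon-linked members are named in bulk RNA, H3K4me3, INPUT RNA, the J2 level and the single-cell sums. In bulk RNA the 10 with the largest fold changes get values per library. Members, lists and tests were chosen with earlier results of these data known. Promoter sequences are from RefSeq, GRCm38.p6. The interferon signalling list is reported here only in part.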

Additional observations from a re-analysis of the deposited data

Results flagged for a closer look

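For 2 members every bulk LSK library of KO moved one way against WT and every J2 liver library of KO moved the other way. Of all genes, 26.8% had every KO library above WT in bulk RNA and 27.8% below. In J2 these shares were 26.6% and 27.9%, and the share with opposite directions was not counted. The difference between the assays was not tested, and they differ in cells and method. Trim24 was at 37.9, 33.4 and 35.7 CPM in KO against 55.2, 50.6 and 45.8 CPM in WT in bulk LSK RNA. In J2 libraries it was at 70.7 and 58.3 CPM in KO against 53.3 and 57.2 CPM in WT, a log2 fold change of 0.22. Trim58 was at 10.0, 7.46 and 8.40 CPM in KO against 5.41, 4.85 and 4.70 CPM in WT in bulk LSK RNA. In J2 libraries it was at 43.8 and 45.9 CPM in KO against 59.7 and 83.6 CPM in WT, a log2 fold change of −0.68. Neither J2 difference passed the threshold (edgeR adjusted p = 0.88 for Trim24 and 0.41 for Trim58). In INPUT RNA of the same livers Trim24 was lower in KO, as in bulk RNA (log2 fold change −1.17). Trim58 stood at 0.19 there, and neither passed.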

How the results depend on the processing

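In bulk LSK RNA the count of members called stayed within 1.5 times 24 in all settings (18 to 24 with 1 library left out, 27 with DESeq2). For H3K4me3 the count was 9. It was 4 with DESeq2, 4 with marked windows only, 35 with a replicate block and 3 to 9 with 1 library left out. With every distinct window fitted the count was 15, each gene being taken at its window of lowest adjusted p. For INPUT RNA it was 2; it was 7 with DESeq2, 7 without the count filter, 3 with library size alone, 0 with only the 4 INPUT libraries and 0 to 5 with 1 library left out. For J2 over INPUT, leaving out 1 library gave 9 to 19 in KO and 5 to 13 in WT. For the J2 level it was 3; it was 7 with DESeq2, 9 with only the 4 J2 libraries, 5 without the count filter, 2 with a replicate block and 0 to 5 with 1 library left out. For the single-cell sums it was 0; it was 2 with DESeq2 and 1 with a replicate block. The change in J2 enrichment stayed at 0 in all settings. The cause of these moves was not tested. Bulk libraries of the same number did not deviate together in every pair (0.23, 0.10 and 0.04), and for H3K4me3 and the single-cell sums, with 2 pairs each (0.30 and 0.26), the number is not stated to pair the samples. Library size alone moved the median log2 fold change of all features to −0.40 for H3K4me3, 0.29 for INPUT, 0.33 and 0.52 for J2 over INPUT in KO and WT, and 0.10 for the J2 level. Signs turned when 1 library was left out for Trim30b (−0.049 to 0.59) and Trim5 (−0.11 to 0.082) in bulk RNA and Trim38 (−0.29 to 0.042) in H3K4me3. They turned likewise for Trim12a (−0.63 to 2.76), Trim12c (−0.45 to 2.54), Trim14 (−0.47 to 1.16) and Trim6 (−0.58 to 0.86) in INPUT. In the single-cell sums they turned for Trim12a (−0.15 to 0.027), Trim14 (−0.23 to 0.11), Trim30b (−0.38 to 6.67) and Trim56 (−0.10 to 0.065). With marked H3K4me3 windows only, Trim21 stood at −0.056 and Trim56 at −0.045, and Trim56 stood at 0.012 in the single-cell sums with library size alone.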

Other observations

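Of the 24 members that did not pass the count filter in bulk LSK RNA, 3 had a start window of at least 16 CPM of H3K4me3 in every library. Trim17 was at 89.3 and 79.1 CPM in KO and at 85.7 and 69.4 CPM in WT, with at most 1 bulk RNA count in a library. Trim7 was at 75.4 and 66.4 CPM in KO and at 62.7 and 51.0 CPM in WT, with at most 10 bulk RNA counts. Trim67 was at 20.9 and 23.4 CPM in KO and at 16.9 and 16.05 CPM in WT. A window of 3 kb can take in the start of a neighbour, and in RefSeq the Trim17 span overlaps those of H2aw and H3f4. A further 16 of the 24 had under 5 CPM in every H3K4me3 library.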
